A study of Mus musculus with 40 samples.

Results

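Bone marrow-derived macrophages (BMDMs) of Cpeb4 knockout mice and of wildtype (WT) mice were compared after 6 hr of lipopolysaccharide (LPS), a bacterial cell wall component that macrophages sense through TLR4. The comparison covers 13039 of the 27179 genes in the deposited expression table, those whose mean level over these libraries reached log2 of 5, and it uses 8 of the 40 RNA-seq libraries of the time course. There were 4 libraries per genotype, each from a separate male mouse on a mixed C57BL/6J and 129 background. Knockout animals lacked Cpeb4 in the whole body and are written Cpeb4-/- or KO here. Bone marrow cells of adult mice were cultured for 7 days with L-cell medium as the source of M-CSF, and LPS was given at 10 ng/ml. Each mouse also gave untreated cells and cells at the other times.

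Below, the values of a gene are listed in a fixed order, WT mice 25, 88, 69 and 87, then KO mice 3, 62, 2 and 55. Levels are rlog values, a log2 scale made from read counts that draws genes with few reads toward their mean, so differences of low genes are understated. A difference is always Cpeb4-/- minus WT in log2 units. No cage held both genotypes, so an effect of the cage and an effect of the genotype cannot be told apart. WT mice 88 and 87 shared cage 9 and KO mice 3 and 2 shared cage 104. Each pair was split between the batches named in the labels. In bulk RNA, fewer cells of a type and less RNA per cell also cannot be told apart.

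CPEB4 is a cytoplasmic RNA-binding protein that recognises the cytoplasmic polyadenylation element, a uridine-rich motif in the 3′ untranslated region, and it can lengthen the poly(A) tail of the mRNAs it binds. Many inflammatory mRNAs carry AU-rich elements instead of or beside this motif, and tristetraprolin, encoded by Zfp36, binds those elements and recruits deadenylases that shorten the tail. The LPS response of macrophages runs in waves, from early cytokine mRNAs through an interferon-driven wave to feedback inhibitors that end it. Libraries were made from poly(A) RNA, so the values are steady-state levels of polyadenylated mRNA, not rates of synthesis, decay or translation.

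The targeted gene was examined first. Cpeb4 levels were 10.42, 10.62, 10.67 and 10.09 in WT and 9.45, 8.74, 8.87 and 9.66 in Cpeb4-/- macrophages. The genotypes did not overlap, although the KO libraries kept a clear signal. The deposited value sums reads over the whole gene, and reads from exons that remain in the mutant allele may be part of it. The difference was −1.27, a level 2.42 times higher in WT, with a two-sided exact permutation p = 0.0286, the smallest that 4 against 4 libraries allow. At the other times the libraries labelled KO overlapped those labelled WT in Cpeb4, with differences of −0.24 before LPS and 0.37, −0.55 and −0.31 after 1, 3 and 9 hr of it. The value of this gene therefore separated the labelled genotypes at 6 hr only, among the 5 times, and its change from untreated cells was not called (adjusted p = 0.34). Among the other members of the family, Cpeb2 was higher in KO by 0.53 (adjusted p = 0.00024, limma). Its levels were 9.97, 9.95, 10.10 and 9.87 in WT against 10.59, 10.42, 10.43 and 10.57. Cpeb1 differed by 0.06 (adjusted p = 0.87) and Cpeb3 by 0.17 (adjusted p = 0.17), and in both genes the genotypes overlapped.

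At an adjusted p under 0.05, 835 genes were higher in Cpeb4-/- macrophages, 6.4% of those tested, and 1294 were lower, 9.92%. In all, 2129 genes passed, 16.3% of those tested. Without KO mouse 2 the counts were 553 higher and 796 lower. Most differences were small. The median size among the called genes was 0.277, and 38 called genes differed by 1 or more, 18 of them higher and 20 lower. All 2129 called genes had the same sign in both batches named in the labels, each of which held 2 mice of each genotype. The calls used these same libraries, so the shared sign is not a separate test. Groups were fully separated for 20.2% of all tested genes, and 14.3% were both separated and called. The library medians lay between 8.92 and 8.95.

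The surplus of lower genes depended on scaling. Of the called genes, 39.2% were higher in KO with the deposited values, and 50.7% after the libraries were quantile normalized, with 1025 higher and 995 lower. The shift was found mainly among highly expressed genes. Of the 338 genes at a mean level of 14 or over, 112 were lower in KO (33.1%) and 9 were higher, with a median difference of −0.11, whereas after quantile normalization 46 were lower and 47 higher. Between 8 and 10 the counts were 282 higher and 252 lower. Statements on highly expressed groups below therefore give the quantile normalized count beside the deposited one.

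**Figure D1:**
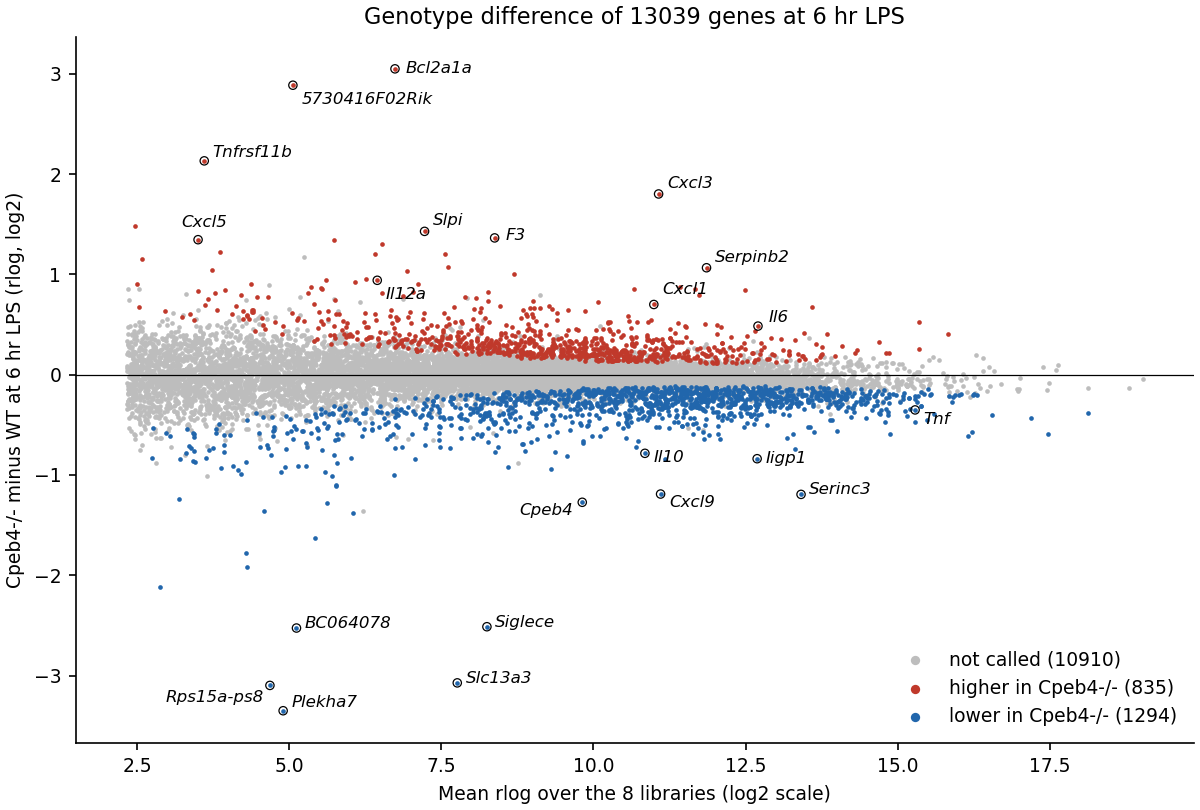
Difference between Cpeb4-/- and WT macrophages at 6 hr of LPS (vertical axis, rlog on a log2 scale) against the mean level over the 8 libraries (horizontal axis, log2) for 13039 genes, one point each. Red points are the 835 genes called higher, blue points the 1294 called lower at an adjusted p under 0.05, and circles mark named genes; blue points outnumber red ones toward the right, at high levels.

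Genes that LPS induces were lower more often than the rest. Genes were classed by how far WT macrophages changed between untreated cells and 3 hr of LPS. The libraries of these times do not enter the 6 hr comparison, but they came from the same WT mice. Libraries of the same mouse deviated together across times (median r 0.289), so the classes are not independent of the comparison. Among the 403 genes that rose by 2 or more in WT, 137 (34%) were lower in Cpeb4-/- cells at 6 hr and 34 (8.44%) higher, with a median difference of −0.17. Of the 845 genes that rose by 1 to 2, 202 (23.9%) were lower and 63 higher. Among the 909 genes that fell by 1 or more in WT, the balance was the other way, with 31 lower (3.41%) and 81 higher (8.91%). With quantile normalized values the counts were 110 lower and 48 higher for the strongly induced genes, 149 and 85 for those that rose by 1 to 2, and 29 and 75 for the repressed ones. The remaining 10882 genes, which changed by less than 1 in WT, turned in direction with scaling, from 924 lower and 657 higher with the deposited values to 707 lower and 817 higher.

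Chemokines that attract neutrophils were higher in KO. Of 6 measured CXC chemokines of this kind, 3 rose and none fell, with or without quantile normalization, and the median difference was 0.48 against −0.02 over all tested genes. Cxcl3 read 9.95, 9.91, 10.55 and 10.27 in WT and 12.45, 11.68, 12.02 and 11.73 in Cpeb4-/- cells. The lowest KO library was more than 1 log2 unit above the highest WT library, and the difference was 1.80 (SE 0.17, adjusted p = 8.1e-05), a level 3.49 times higher. Cxcl5 gave 2.56, 2.83, 3.16 and 2.75 against 4.57, 3.87, 4.12 and 4.12, near the lower end of the scale and without overlap (1.35, SE 0.18, adjusted p = 0.00082). Cxcl1 was at 10.64, 10.53, 10.51 and 10.88 in WT and at 11.59, 11.21, 11.43 and 11.13 in KO, again without overlap (0.70, SE 0.10, adjusted p = 0.001). Cxcl2, which encodes another CXCR2 ligand, was not called, with overlapping groups and a difference of 0.13 (SE 0.08, adjusted p = 0.29).

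The promoters of the 2 called members with an entry in the RefSeq sequence table are shown because they share one motif. The letters GGGANTTTCC, a binding motif of NF-kB, were searched on both strands of the window from 250 bases before to 50 bases after the start of each gene. They occurred in 3 of 5 CXC chemokine windows (60%) and in 0.556% of the 10065 windows of tested genes. Both stretches lie on the plus strand of the build GRCm38.p6, at chr5:90786018-90786047 for Cxcl3 and chr5:90891164-90891193 for Cxcl1, and capitals mark the motif.
Cxcl3: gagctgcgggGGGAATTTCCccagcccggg
Cxcl1: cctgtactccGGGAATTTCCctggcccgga
The motif ends 64 bases before the start of Cxcl3 and 62 bases before that of Cxcl1. A match describes the letters in the window and was not measured as a binding site.

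Cxcl9, a ligand of CXCR3 that recruits T cells, was at 11.51, 12.10, 11.93 and 11.25 in WT and at 10.37, 10.30, 10.41 and 10.95 in KO. The highest KO library, mouse 55, stayed below the lowest WT library, and the difference was −1.19 (SE 0.18, adjusted p = 0.0012). The other two CXCR3 ligands measured were not called. Among 11 CC chemokines, Ccl12, a monocyte attractant, fell by 0.64 (adjusted p = 0.0047) and Ccl24, an eosinophil attractant, was higher by 0.30 (adjusted p = 0.014). Ccl2 differed by −0.25 with overlapping groups (adjusted p = 0.11).

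Cytokines split in both directions, with 5 of 19 higher and 8 lower (6 and 7 after quantile normalization). Il12a, the p35 subunit of IL-12, gave 5.55, 6.04, 6.29 and 6.01 in WT and 7.50, 6.59, 6.61 and 6.95 in Cpeb4-/- cells. The groups were separated, and the difference was 0.94 (SE 0.20, adjusted p = 0.0079). Il12b, the p40 subunit that pairs with it, lay on the other side of zero, at 11.40, 11.58, 11.54 and 11.52 against 11.43, 10.39, 10.87 and 11.21. Here KO mouse 3 lay inside the WT range, and the call was marginal (−0.53, SE 0.16, adjusted p = 0.045) and was lost after quantile normalization (adjusted p = 0.052) and with batch as a covariate (adjusted p = 0.061). Il23a, the subunit that forms IL-23 with p40, was higher by 0.68 (adjusted p = 0.014) at a low level. Il27, which restrains T cell responses, fell by 0.51 (adjusted p = 0.0012).

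Il6 and Tnf differed in opposite directions. Il6 was at 12.16, 12.65, 12.60 and 12.44 in WT and between 12.67 (mouse 62) and 13.29 (mouse 3) in KO. The groups met almost edge to edge without overlapping, and the difference was 0.48 (SE 0.13, adjusted p = 0.021). The Il6 call was lost with no floor on the level (limma, adjusted p = 0.13), with other variance models and without WT mouse 25. Quantile normalization kept it (limma, adjusted p = 0.0091). Tnf, the early cytokine whose mRNA is a classic target of tristetraprolin, was at 15.41, 15.45, 15.50 and 15.48 in WT and at 15.19, 14.95, 15.10 and 15.21 in KO. It was lower in every KO library, by 0.35 on average (SE 0.06, adjusted p = 0.0024), and by 0.22 after quantile normalization (adjusted p = 0.013). Osm, the cytokine oncostatin M, was higher by 0.46 (adjusted p = 0.0039), Il15 was lower by 0.46 (adjusted p = 0.0017), and Il1b did not pass (0.20, adjusted p = 0.15), although it did after quantile normalization (adjusted p = 0.046).

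Tnfsf10, which encodes the death ligand TRAIL, was at 11.44, 11.86, 11.63 and 11.44 in WT and at 10.85, 10.48, 10.62 and 11.07 in KO. All KO libraries were below all WT libraries (−0.84, SE 0.12, adjusted p = 0.00098). The anti-inflammatory cytokine Il10 showed 11.08, 11.30, 11.37 and 11.21 in WT and 10.32, 10.37, 10.47 and 10.66 in Cpeb4-/- cells. The separation was complete and the spread small in both groups, and the difference was −0.78 (SE 0.08, adjusted p = 0.00012), a level 1.72 times higher in WT. Its difference in untreated cells was 0.00, and the change between untreated cells and 6 hr was itself called (−0.78, adjusted p = 0.0092).

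**Figure D2:**
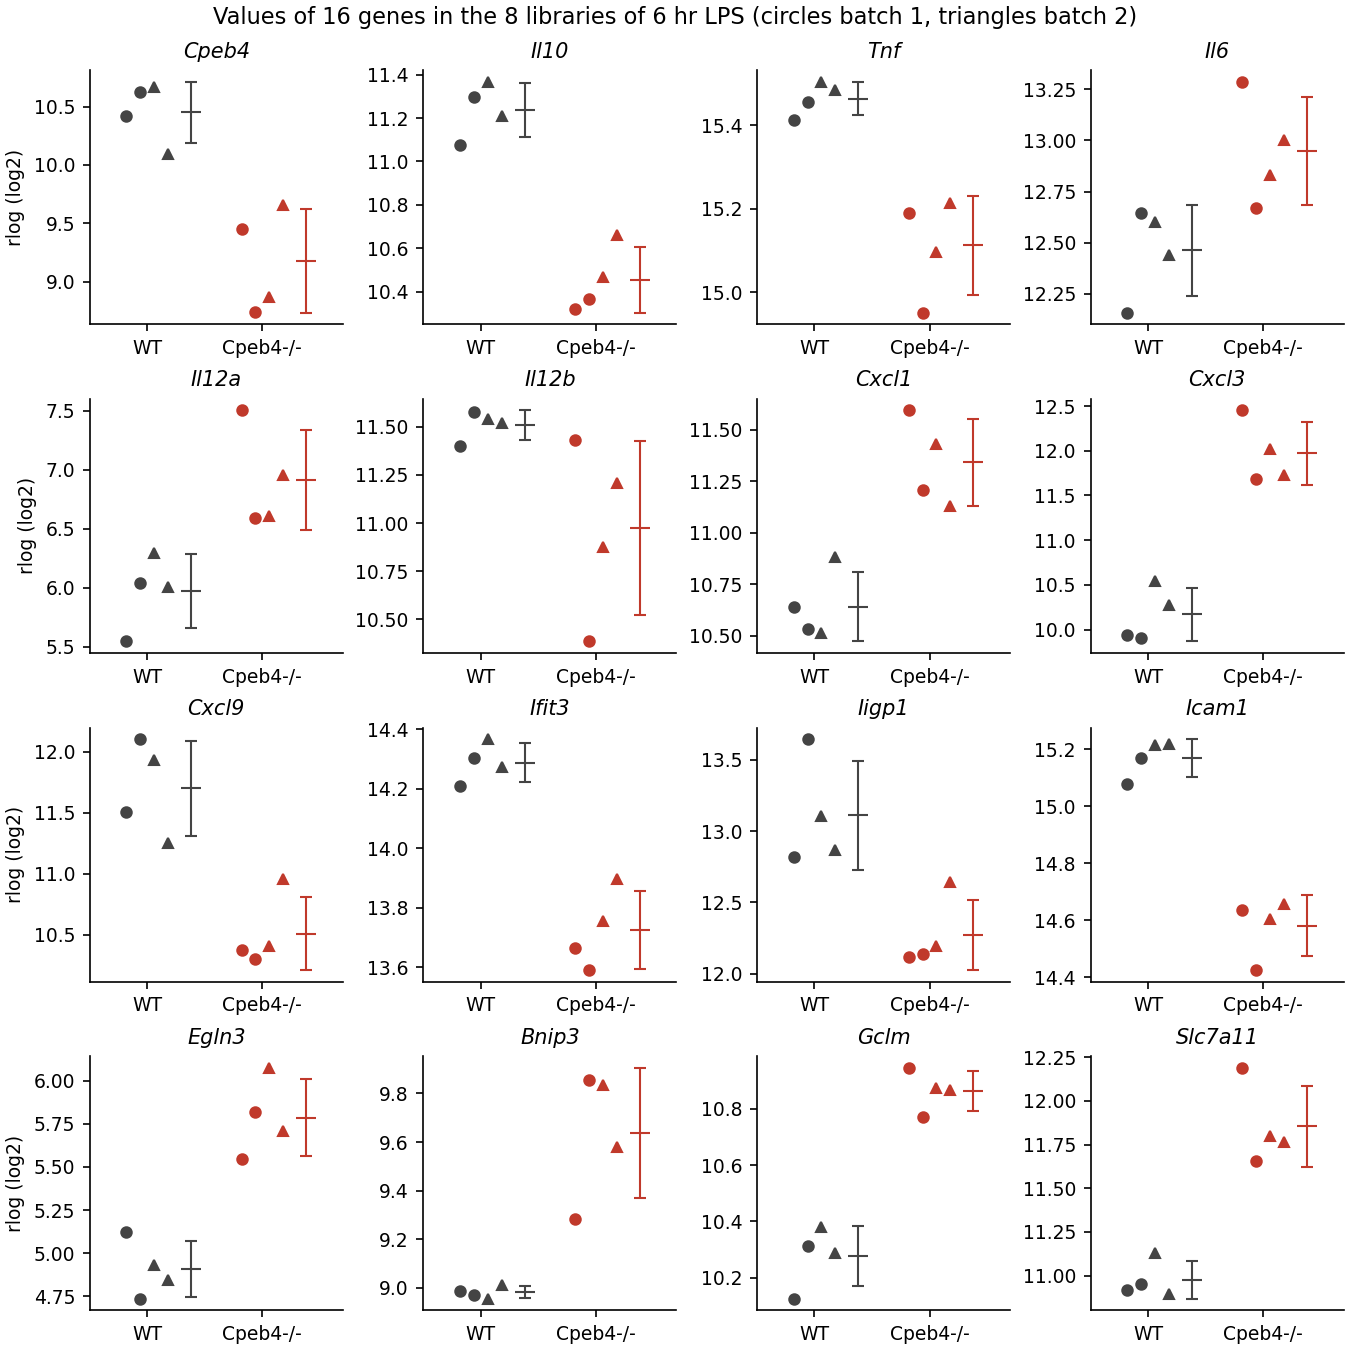
rlog values (log2 scale, each panel with its own axis, which does not start at 0) of 16 genes in the 8 libraries at 6 hr of LPS, WT in grey and Cpeb4-/- in red, circles for batch 1 and triangles for batch 2, with the mean and SD of the 4 libraries beside them. The genotypes overlap for Il12b, where KO mouse 3 at 11.43 lies inside the WT range, and are separated for Cpeb4, Il10, Tnf, Il6, Il12a, Cxcl1, Cxcl3, Cxcl9, Ifit3, Iigp1, Icam1, Egln3, Bnip3, Gclm and Slc7a11.

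Several other feedback inhibitors of the LPS response were lower as well. Of 34 negative regulators, 11 fell (32.4%) and 2 rose, with a median difference of −0.10, but quantile normalization left 5 lower and 3 higher. The share that fell was close to the 34% of all genes that rose by 2 or more in WT at 3 hr. It was also close to the 33.1% of all genes at a mean level of 14 or over. The 4 largest falls were Il10, Tnip3, an A20-binding inhibitor of NF-kB (−0.45, adjusted p = 0.00066), and the MAP kinase phosphatases Dusp2 (−0.42, adjusted p = 0.00049) and Dusp1 (−0.40, adjusted p = 0.0031). Dusp1 was at 13.31, 13.40, 13.56 and 13.35 in WT against 12.83 to 13.16 in KO, with no overlap. Zfp36 (−0.23), Tnfaip3 (−0.23) and Socs3 (−0.20) were called lower with the deposited values only, and quantile normalization brought their adjusted p to 0.094, 0.15 and 0.30. The phosphatase Dusp16 was higher by 0.32 (adjusted p = 0.0013) and the tristetraprolin relative Zfp36l1 by 0.19 (adjusted p = 0.047). The Zfp36l1 call was marginal and was lost with all 40 libraries in one fit and the mouse as a block (adjusted p = 0.14), with batch as a covariate (adjusted p = 0.067) and without any single library other than KO mouse 62. Socs1 (0.10, adjusted p = 0.32) and Il1rn (−0.18, adjusted p = 0.085) were not called.

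Interferon-stimulated genes were lower as a group. Of 46 measured, 33 were lower in Cpeb4-/- macrophages and none was higher, with a median of −0.24, and all 46 had a lower mean in KO. After quantile normalization 19 were lower and none higher. Leaving out single mice moved the lower count between 21, without KO mouse 2, and 39. Interferon-inducible GTPases, which attack the vacuoles of intracellular pathogens, were lower in 15 of 18 cases with a median of −0.37 (13 of 18 after quantile normalization), and again none was higher. In MHC class I presentation 14 of 22 genes were lower and none higher, with 6 lower after quantile normalization, 8 without KO mouse 2 and 9 without WT mouse 69. In untreated cells the medians of these lists, in the same order, were already −0.16, −0.11 and −0.11, against −0.24, −0.37 and −0.20 at 6 hr. The change from untreated cells to 6 hr was called for 1, 0 and 0 of their genes. That fit did not use the mouse as a block. Over all tested genes it called 382 changes, against 924 with the block. A change that was not called does not show that the difference was the same at both times.

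Rsad2, the antiviral enzyme viperin, was at 17.55, 17.92, 17.87 and 17.73 in WT and at 17.22, 16.93, 17.13 and 17.39 in KO (−0.60, SE 0.10, adjusted p = 0.003). Ifit3, which binds foreign RNA with its partners of the family, gave 14.21, 14.30, 14.37 and 14.27 against 13.66, 13.59, 13.76 and 13.89 (−0.56, SE 0.06, adjusted p = 0.00024). Iigp1, one of the GTPases, gave 12.82, 13.65, 13.11 and 12.87 against 12.12, 12.14, 12.19 and 12.64 (−0.84, SE 0.16, adjusted p = 0.005). In all these genes the KO libraries lay below the WT libraries, and KO mouse 55 was nearest to WT. Ifit3b (−0.66), Tgtp1 (−0.91) and H2-Q6 (−0.70) were also lower, but each has near-identical copies in the genome among which reads may be split, so their values are uncertain. Cmpk2, a mitochondrial nucleotide kinase next to Rsad2, fell by 0.61 (adjusted p = 0.0025) and Ifi44 by 0.60 (adjusted p = 0.0013).

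The inducers of this programme were examined next. Ifnb1, the interferon that LPS elicits in macrophages, was at 5.11, 5.59, 5.08 and 5.78 in WT and at 5.57, 5.05, 5.64 and 5.68 in KO, fully overlapping (0.10, SE 0.18, adjusted p = 0.77). The Ifnb1 difference was 0.12 in untreated cells and −0.71, −0.66 and −0.58 after 1, 3 and 9 hr of LPS. Those at 1 and 3 hr were not tested, and the change between 6 and 9 hr was not called (limma, adjusted p = 0.24). Among 24 IRF, STAT and JAK genes 7 were lower and 1 higher (3 and 3 after quantile normalization). The lower count was 4 without any one of KO mouse 62, WT mouse 88, KO mouse 2 or WT mouse 69. Tyk2, the kinase bound to the interferon receptor, fell by 0.41 (adjusted p = 0.0014), Stat4 by 0.45 (adjusted p = 0.015), Irf5 by 0.31 (adjusted p = 0.0014) and Irf7 by 0.22 (adjusted p = 0.016). Irf7 lost its call after quantile normalization (adjusted p = 0.22) and with the mouse as a block (adjusted p = 0.056). The receptor chain Ifngr1 was higher by 0.18 (adjusted p = 0.017).

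A promoter motif was searched in these groups. Interferon-stimulated genes and the GTPases were listed as interferon-responsive. Their share with the motif describes the lists, not the genotype difference. The letters GAAANNGAAA, the core of the interferon-stimulated response element, were found on either strand in 18 of 35 windows of interferon-stimulated genes (51.4%) and in 10 of 11 windows of the GTPases (90.9%), against 3.99% of the windows of all tested genes. In MHC class I presentation 5 of 17 windows held it (29.4%). Among the members called lower it was in 11 of 24 windows of interferon-stimulated genes (45.8%) and in 2 of 12 of MHC class I presentation (16.7%). The stretches of 4 called genes are printed 5′ to 3′ on the strand of the gene, with the motif or its reverse complement in capitals. They come from RefSeq on GRCm38.p6, at chr12:26456553-26456582 (minus strand) for Rsad2, chr19:34583363-34583392 (plus) for Ifit3, chr11:58214903-58214932 (plus) for Irgm2 and chr11:58199512-58199541 (plus) for Igtp. Windows follow the start given in the RefSeq sequence table, which for Ifit3 lies inside the interval annotated for the gene.
Rsad2: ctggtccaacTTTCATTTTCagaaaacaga
Ifit3: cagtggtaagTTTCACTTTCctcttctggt
Irgm2: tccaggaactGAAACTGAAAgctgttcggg
Igtp: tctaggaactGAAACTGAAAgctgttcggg
The GTPase genes Irgm2 and Igtp, neighbours on chromosome 11, carry almost the same stretch, and both were lower in KO, Irgm2 by 0.39 and Igtp by 0.37.

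Receptors and kinases upstream of these responses were lower in part. None of 28 Toll-like receptor and adaptor genes was higher and 8 were lower, the same number as after quantile normalization, which called 1 higher, and without KO mouse 2 the lower count was 5. Tlr9, the endosomal sensor of CpG DNA, was at 9.91, 9.97, 10.27 and 9.73 in WT and at 9.25, 8.94, 8.88 and 9.57 in KO. No library crossed over (−0.81, SE 0.14, adjusted p = 0.0031). Tlr3, the sensor of double-stranded RNA, fell by 0.51 (adjusted p = 0.0037).

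Kinases of the LPS cascade went in both directions, with 3 of 17 higher and 3 lower (5 and 2 after quantile normalization). Map2k4, which activates JNK, was at 12.02, 12.04, 12.02 and 11.89 in WT and at 11.45, 11.34, 11.44 and 11.61 in KO (−0.53, SE 0.06, adjusted p = 0.0002). Mapk8, which encodes JNK1 itself, moved opposite to its activator, at 8.44, 8.41, 8.40 and 8.42 against 8.84, 8.86, 8.92 and 8.96 (0.47, SE 0.05, adjusted p = 0.00019). Both genes were separated between genotypes, and both differences were called as changed from untreated cells. Map3k8, which feeds the ERK branch, fell by 0.33 (adjusted p = 0.0067). Among 23 AP-1 and immediate early factors 3 were higher and 3 lower. Fosl1 was higher by 1.04 (adjusted p = 0.0018) at a low level, and Nr4a1, a nuclear receptor induced early, by 0.65 (adjusted p = 0.0013).

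Genes of the hypoxia response were higher in Cpeb4-/- macrophages. In this list 14 of 29 measured genes rose and 1 fell, with a median of 0.21, and quantile normalization gave 15 and 1. Leaving out single mice kept the count between 13 and 15. The largest rises were in Egln3, a prolyl hydroxylase that marks HIF for degradation, in Ddit4, an inhibitor of mTORC1, in Ankrd37 and in Bnip3, a mitophagy receptor.

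Egln3 was at 5.12, 4.74, 4.93 and 4.84 in WT and at 5.55, 5.82, 6.07 and 5.71 in KO (0.88, SE 0.13, adjusted p = 0.0013). Ddit4 gave 6.61, 6.44, 6.66 and 6.80 against 7.34, 7.52, 7.55 and 7.37 (0.82, SE 0.09, adjusted p = 0.00023), and Bnip3 gave 8.99, 8.97, 8.96 and 9.01 against 9.29, 9.86, 9.83 and 9.58 (0.66, SE 0.10, adjusted p = 0.0016). All were separated, and the spread of Bnip3 was wider in KO than in WT. Hif1a, the regulated subunit of the factor, was at 13.19, 13.25, 13.10 and 13.02 against 13.43, 13.46, 13.44 and 13.63 (0.35, SE 0.06, adjusted p = 0.0022). Vegfa, the angiogenic target, was called at the margin with overlapping groups (0.37, SE 0.12, adjusted p = 0.048), and the call was lost after quantile normalization (adjusted p = 0.053) and with the mouse as a block (adjusted p = 0.11). The exception was Ndrg1, which fell by 0.48 (adjusted p = 0.00031).

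The 5 letters ACGTG, the core of the hypoxia response element, were present on either strand in 17 of 22 windows of this list (77.3%) and in 29.2% of all tested windows. Among the members called higher it was in 10 of 13 windows (76.9%). The genes were listed as hypoxia-responsive, so this share describes the list, not the genotype difference. A short motif occurs often by its length alone, and it was also in 4 of 5 CXC chemokine windows (80%). Stretches of Egln3, Bnip3 and Ddit4 are shown as examples of called members that hold it. Their positions on GRCm38.p6, from RefSeq, are chr12:54204086-54204115 (minus strand), chr7:138909597-138909626 (minus) and chr10:59951940-59951969 (minus), and capitals mark the motif or its reverse complement.
Egln3: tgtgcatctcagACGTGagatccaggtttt
Bnip3: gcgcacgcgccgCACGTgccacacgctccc
Ddit4: agaacgttgcgaACGTGcgcccggtgccta

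Glycolysis genes were called in both directions, 8 of 20 higher and 5 lower, with a median of 0.12 (9 and 4 after quantile normalization). Without KO mouse 2 the counts were 5 higher and 2 lower, the higher count was also 5 without KO mouse 62 or WT mouse 69, and the lower count was 2 without WT mouse 88 and 3 without KO mouse 3, KO mouse 62, WT mouse 69 or WT mouse 87. Slc16a3, the lactate exporter, rose by 0.48 (adjusted p = 0.005), Pfkl, a phosphofructokinase, by 0.40 (adjusted p = 0.016), and Slc2a1, the glucose transporter GLUT1, by 0.37 (adjusted p = 0.00063). Slc2a1 was at 12.11, 11.98, 12.14 and 12.10 in WT and at 12.41, 12.47, 12.39 and 12.55 in KO. Aldoc (−0.38, adjusted p = 0.013) and Hk3 (−0.30, adjusted p = 0.022), an aldolase and a hexokinase, were lower. Of 72 oxidative phosphorylation genes none was called higher and 1 lower, with a median of −0.05, and after quantile normalization none was lower. Of 25 genes of itaconate synthesis and the TCA cycle 5 were higher and 2 lower (5 and 0 after quantile normalization), and the higher count was 1 without KO mouse 2 or WT mouse 69, 2 without KO mouse 3 or WT mouse 88 and 3 without WT mouse 25. Acod1, which makes itaconate, was not called (−0.15, adjusted p = 0.16).

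Antioxidant genes were higher. Of 33 NRF2 targets and antioxidant enzymes, 13 rose and 2 fell, with a median of 0.12 (18 and 1 after quantile normalization), and without KO mouse 2 the count of rises was 8. Gclm, a subunit of the first enzyme of glutathione synthesis, was at 10.13, 10.31, 10.38 and 10.29 in WT and at 10.95, 10.77, 10.87 and 10.87 in KO (0.59, SE 0.06, adjusted p = 0.00011). Its catalytic partner Gclc rose by 0.45 (adjusted p = 0.00091), Nqo1 by 0.56 (adjusted p = 0.0096) and Srxn1 by 0.51 (adjusted p = 0.0019). Slc7a11, the cystine importer that supplies this pathway, showed 10.92, 10.95, 11.13 and 10.90 against 12.19, 11.66, 11.80 and 11.77, a gap with no library between (0.88, SE 0.10, adjusted p = 0.00022).

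Several biosynthetic groups were one-sided toward higher levels. In cholesterol synthesis 7 of 24 genes rose and none fell, with a median of 0.17 (11 and 0 after quantile normalization), among them Sqle, the enzyme squalene epoxidase (0.32, adjusted p = 0.014). This count was 3 without KO mouse 3, 4 without WT mouse 88, KO mouse 2 or WT mouse 69, and 13 without WT mouse 87. Scd2, a fatty acid desaturase in the list of cholesterol efflux and LXR targets, of which 3 of 15 rose and 1 fell (4 and 0 after quantile normalization), was at 11.39, 11.09, 11.14 and 11.37 in WT and at 12.24, 12.01, 12.16 and 11.98 in KO (0.85, SE 0.08, adjusted p = 6.7e-05). For ribosome biogenesis 14 of 48 rose and 1 fell (15 and 1 after quantile normalization), led by Gar1, a snoRNP protein (0.50, adjusted p = 0.0016), and Wdr75 (0.36, adjusted p = 0.0019). The count of rises was 7 without WT mouse 88 or WT mouse 69, 8 without KO mouse 3 or KO mouse 2, and 9 without KO mouse 62. In the ER unfolded protein response 6 of 22 rose and none fell (10 and 0 after quantile normalization, 3 and 0 without WT mouse 25), including the chaperones Pdia4 and Creld2 (both 0.35, adjusted p = 0.00076 and 0.0053). None of the 78 cytosolic ribosomal protein genes was called (2 higher after quantile normalization), and of 44 translation factors 1 was higher and 1 lower (3 and 0 after quantile normalization). Of 37 mTOR and amino acid transport genes 3 were higher and 5 lower (4 and 3 after quantile normalization, so that the direction turned).

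Factors that act on the poly(A) tail and on mRNA decay were also examined. Of 34 measured, 6 were higher and 1 lower (8 and 1 after quantile normalization), and without KO mouse 3 the higher count was 3. Tob2, an antiproliferative protein that bridges RNA-binding proteins to the CCR4-NOT deadenylase, was at 11.12, 11.12, 11.22 and 11.06 in WT and at 11.61, 11.61, 11.61 and 11.74 in KO (0.52, SE 0.05, adjusted p = 6.6e-05). Its relative Tob1 rose by 0.38 (adjusted p = 0.0019). Both, with Cpeb2, differed by similar amounts in untreated cells, by 0.39 for Tob2, 0.33 for Tob1 and 0.37 for Cpeb2.

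Antigen presentation and costimulation diverged within 1 list, of which 4 of 20 genes rose and 7 fell, the same counts as after quantile normalization. The 4 that rose were the class II genes H2-Aa (0.49, adjusted p = 0.0088), H2-Eb1 (0.49, adjusted p = 0.0074), H2-Ab1 (0.43, adjusted p = 0.011) and the invariant chain Cd74 (0.33, adjusted p = 0.02), and these differed in untreated cells too, by 0.55, 0.53, 0.46 and 0.41. With the mouse as a block Cd74 was not called (adjusted p = 0.064). H2-Aa was at 11.47, 12.08, 11.72 and 11.84 in WT and at 12.44, 12.30, 12.11 and 12.24 in KO, so that KO mouse 2 was just above WT mouse 88. The adhesion and costimulatory molecules fell. Icam1 gave 15.08, 15.17, 15.21 and 15.22 against 14.64, 14.43, 14.61 and 14.66 (−0.59, SE 0.06, adjusted p = 0.00012), with a difference of −0.08 in untreated cells. Cd80 (−0.61, adjusted p = 0.0091), Slamf9 (−0.51, adjusted p = 0.00069) and Cd83 (−0.48, adjusted p = 0.0059) were lower too.

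Surface receptors and the lysosome leaned to lower levels with the deposited values. Of 52 lysosomal genes 15 were lower and 1 higher, with a median of −0.10. After quantile normalization 8 were lower and 2 higher, with a median of −0.01. Without KO mouse 2 the lower count was 9. The largest changes were in the protease gene Ctsf (−0.34, adjusted p = 0.01), in Gla (−0.32, adjusted p = 0.0068), which encodes alpha-galactosidase A, and in Ctsk, the one gene that rose (0.53, adjusted p = 0.0036). Of 32 scavenger and efferocytosis receptors 9 were lower and 1 higher (5 and 3 after quantile normalization), among them Fcgr4, an activating Fc receptor (−0.52, adjusted p = 0.00056), and the mannose receptor Mrc1 (−0.44, adjusted p = 0.0024). The lower shares of the lysosomal and scavenger lists were 28.8% and 28.1%. Over all tested genes 25.1% were lower at a mean level of 12 to 14 and 33.1% at 14 and over. In purinergic signalling 6 of 16 were lower and none higher, led by the adenosine receptor Adora3, which was at 7.90, 8.02, 7.67 and 7.74 in WT and at 6.87, 7.11, 7.20 and 7.27 in KO (−0.72, SE 0.10, adjusted p = 0.00098).

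Eicosanoid and arginine metabolism changed in single genes. Ptges, the synthase that makes prostaglandin E2 in macrophages, rose by 0.41 (adjusted p = 0.015), while Hpgds, which makes prostaglandin D2, fell by 0.42 (adjusted p = 0.00039) and Ptgs1, the constitutive cyclooxygenase, by 0.44 (adjusted p = 0.0088). Ptgs2, the inducible cyclooxygenase, did not pass (−0.09, adjusted p = 0.57). Nos2 did not pass either (−0.40, adjusted p = 0.069), and Arg1, which competes for the same substrate, was higher by 0.57 (adjusted p = 0.014) at a low level. Arg1 lost its call when all 40 libraries were fitted together, with or without the mouse as a block (adjusted p = 0.083 and 0.084). Il4ra, the receptor chain of alternative activation, fell by 0.48 (adjusted p = 0.00024), while Socs2 rose by 0.63 (adjusted p = 0.018). In all, 3 of 14 alternative activation markers rose and 3 fell.

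Secreted inhibitors, proteases and clotting factors held several of the largest rises. In the list of proteases, inhibitors and matrix, 9 of 22 genes rose and 4 fell (10 and 1 after quantile normalization). Serpinb2, an inhibitor of urokinase, was at 11.42, 11.14, 11.39 and 11.35 in WT and at 12.22, 12.51, 12.61 and 12.23 in KO (1.07, SE 0.09, adjusted p = 4.7e-05). F3, which encodes tissue factor, the trigger of coagulation, gave 7.48, 7.58, 7.98 and 7.73 against 9.43, 8.92, 8.96 and 8.92 (1.36, SE 0.12, adjusted p = 7.8e-05). In both genes the groups were far apart. Timp1, an inhibitor of metalloproteinases, rose by 0.73 (adjusted p = 0.00079) and Mmp8 by 0.66 (adjusted p = 0.00022).

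Of 19 antimicrobial and complement genes 4 rose and 9 fell, with a median of −0.22 (4 and 7 after quantile normalization). Slpi, an inhibitor of neutrophil elastase, was at 6.49, 6.56, 6.39 and 6.60 in WT and at 7.85, 8.11, 8.10 and 7.68 in KO (1.43, SE 0.10, adjusted p = 1.7e-05), and Ptx3, a soluble pattern recognition protein, rose by 0.64 (adjusted p = 0.0051). C3 (−0.43, adjusted p = 0.018) and C4b (−0.65, adjusted p = 0.014), central complement components, were lower with overlapping groups. Tnfrsf11b, the RANKL decoy receptor osteoprotegerin, read 1.93, 1.93, 3.45 and 2.83 in WT and 5.34, 3.99, 4.61 and 4.71 in KO. Its groups were separated even though WT spread over more than 1 log2 unit (2.13, SE 0.35, adjusted p = 0.002), and Tnfrsf11a, which encodes the receptor RANK, fell by 0.44 (adjusted p = 0.0012).

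Cell cycle genes were called in both directions. Of 29 S phase genes 6 were lower and none higher, with Mcm10, a replication factor, lower by 0.40 (adjusted p = 0.017). Of 27 G2 and M phase genes 5 were higher and 1 lower, including the checkpoint kinase Bub1b (0.49, adjusted p = 0.0034), and the higher count was 1 without KO mouse 3, WT mouse 88, KO mouse 2 or WT mouse 69, 2 without WT mouse 25 and 10 without KO mouse 62. Mki67, a marker of cycling cells, overlapped (0.09, adjusted p = 0.54). Cdkn1b, the inhibitor p27, was at 10.32, 10.41, 10.37 and 10.42 in WT and at 10.91, 10.77, 10.94 and 10.77 in KO (0.47, SE 0.05, adjusted p = 0.0002). Ccnd1, which encodes cyclin D1, fell by 0.38 (adjusted p = 0.0036).

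**Figure D3:**
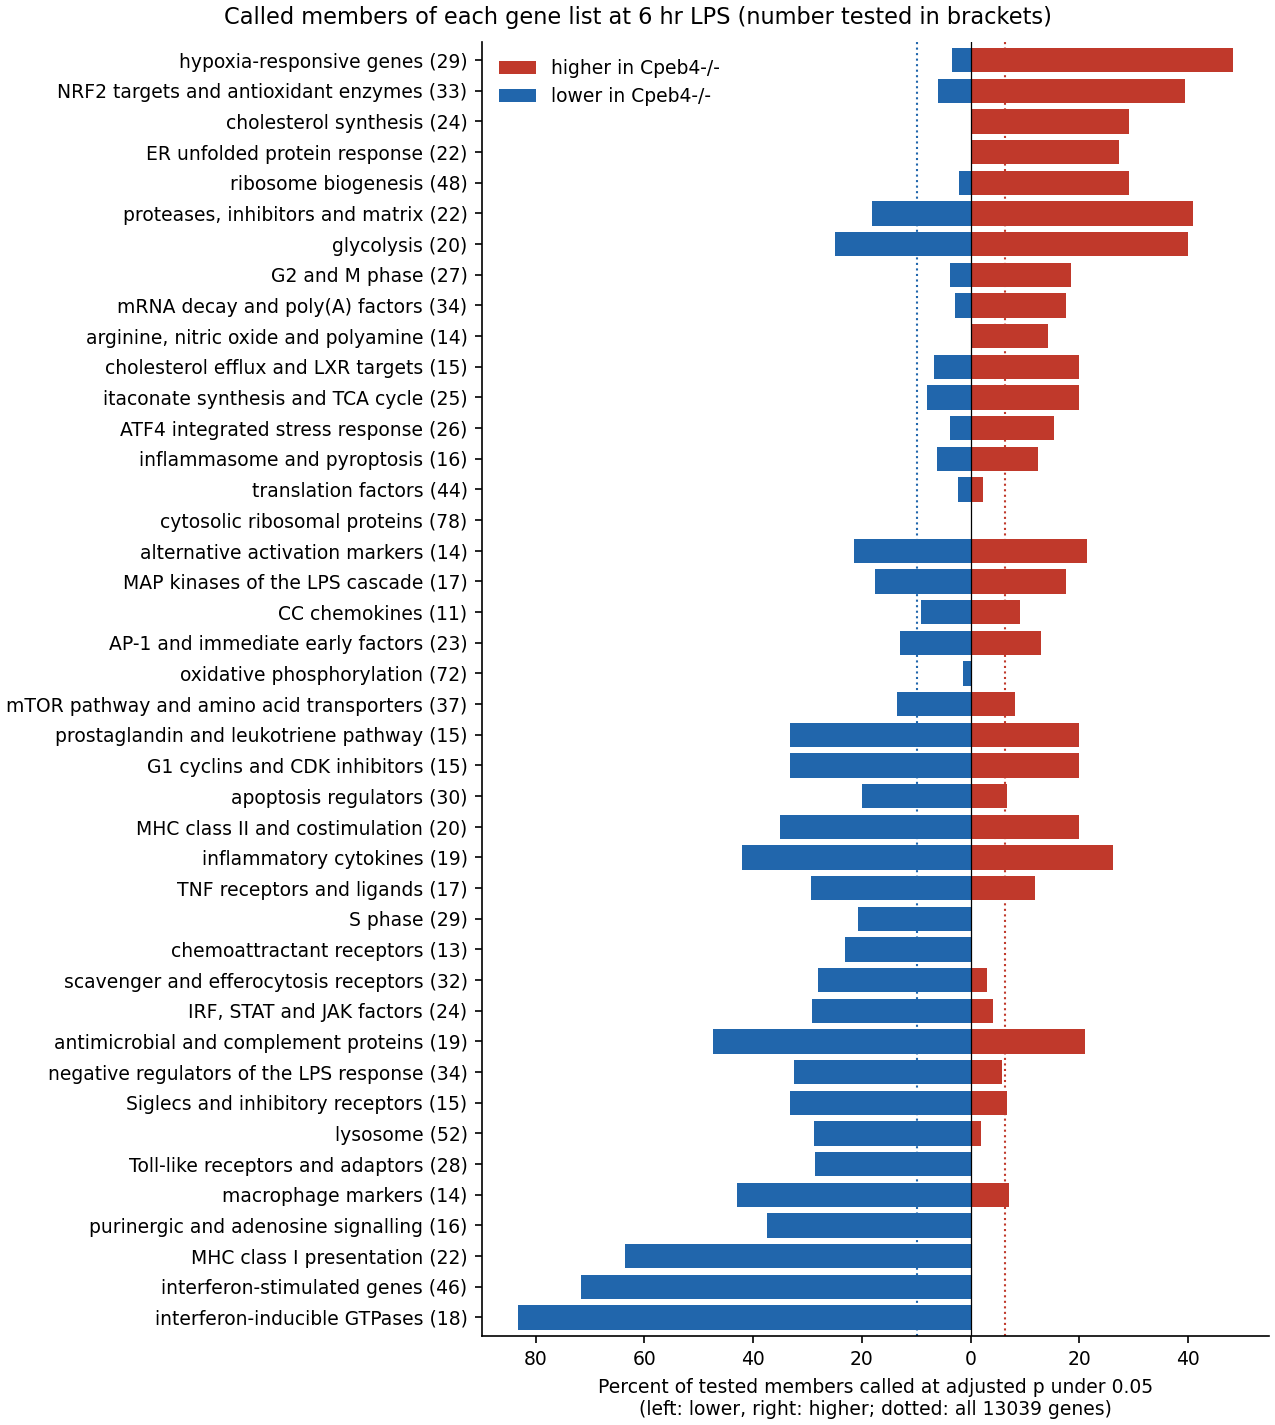
Share of the tested members of each gene list called lower (blue, to the left) or higher (red, to the right) in Cpeb4-/- macrophages at 6 hr of LPS, in percent, with the number tested in brackets and dotted lines at the shares over all tested genes, 9.92% lower and 6.4% higher. Interferon-inducible GTPases, interferon-stimulated genes and MHC class I presentation extend farthest to the left without a red bar, and hypoxia-responsive genes extend farthest to the right.

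Part of the differences at 6 hr was already there before LPS. The change of the genotype difference between untreated cells and 6 hr was called for 382 genes, 2.93% of those tested, and for 924 when the mouse was fitted as a block. Without 1 of the 6 hr libraries it was 177 (KO mouse 62), 194 (KO mouse 2), 197 (WT mouse 88), 245 (WT mouse 69) or 591 (KO mouse 55). Of the 2129 genes called at 6 hr, 314 changed in this test and 1815 did not, which does not show that their difference was the same at both times. Against 9 hr the change was called for 253 genes (1.94%), or 702 with the mouse as a block, and for 113 without KO mouse 62, 122 without KO mouse 2, 124 without WT mouse 88 and 127 without WT mouse 69. These contrasts share the 6 hr libraries with the comparison above.

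Among the 12 largest falls, several were large in untreated cells. Slc13a3, a dicarboxylate transporter, was at 9.23, 8.98, 9.73 and 9.24 in WT and at 6.01, 6.21, 6.16 and 6.51 in KO (−3.07, adjusted p = 2.3e-07), and its difference in untreated cells was −2.04. Siglece, an inhibitory lectin receptor, gave 9.59, 9.44, 9.13 and 9.86 against 6.86, 7.12, 7.03 and 6.95 (−2.51, adjusted p = 3.4e-07), after −2.27 in untreated cells. Serinc3, a membrane protein, gave 13.94 to 14.09 in WT against 12.83, 12.71, 12.82 and 12.90 (−1.19, adjusted p = 1.2e-07), after −1.49. In these genes every KO library was below every WT library, with little spread.

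Other genes of the 12 largest rises and falls are known less for their part in the LPS response. Rnase6, an antimicrobial ribonuclease, was at 6.86, 7.12, 7.06 and 6.81 in WT and at 8.65, 7.80, 7.90 and 8.30 in KO (1.20, SE 0.16, adjusted p = 0.00069), and its difference in untreated cells was −0.42, of the other sign. Angpt1, a ligand of the endothelial receptor TIE2, gave 6.01, 6.77, 6.30 and 5.95 against 4.72, 4.74, 5.19 and 5.26 (−1.28, SE 0.19, adjusted p = 0.0011), after 0.08 in untreated cells. Both were separated between genotypes. Sectm1a fell by 1.36 at 6 hr (adjusted p = 0.0026) and differed by 0.54 at 9 hr. Dennd3 rose by 1.34 (adjusted p = 0.0046) and Plbd1 fell by 1.37 (adjusted p = 0.0002), after 0.85 and −0.66 in untreated cells. Hal, the histidine ammonia-lyase, was higher by 1.21 at 6 hr (adjusted p = 0.015), less than the 2.86 in untreated cells, though this change was not called (adjusted p = 0.41). Its 6 hr call was lost when all 40 libraries were fitted together, with the mouse as a block (adjusted p = 0.11) or without it (adjusted p = 0.24).

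In 3 other genes 1 library lay near the other genotype and made the difference smaller. Plekha7 was at 7.69, 7.04, 7.82 and 3.73 in WT and between 3.01 and 3.69 in KO, so that WT mouse 87 lay beside the KO libraries. The pseudogene Rps15a-ps8 had the same mouse at 3.60 and the other WT libraries at 7.02 to 7.25. For 5730416F02Rik, KO mouse 55 was at 3.75, near WT, and the other KO libraries at 7.37 to 7.44. The cause of these single values was not tested. Bcl2a1a, one of several near-identical copies, had a difference of 3.05 with overlapping groups, because WT mouse 88 at 8.28 lay among the KO libraries, which were at 8.18 to 8.30.

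**Figure D4:**
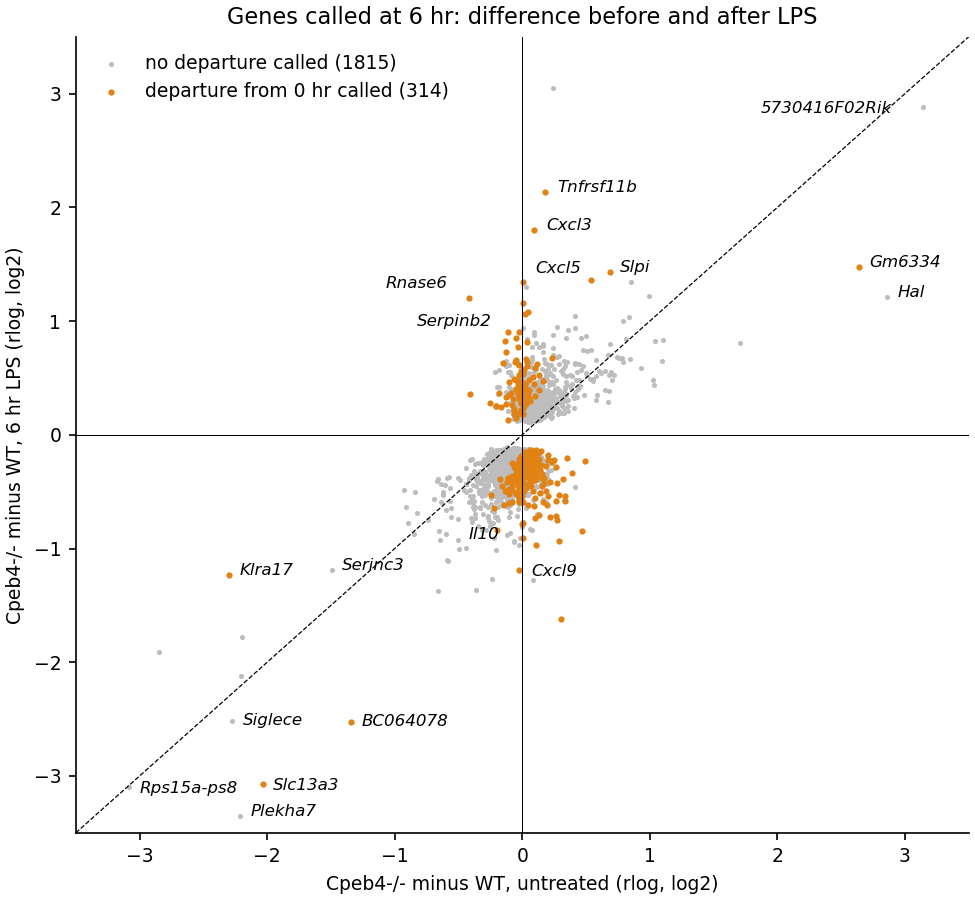
Difference between Cpeb4-/- and WT macrophages at 6 hr of LPS (vertical axis) against that in untreated cells (horizontal axis), rlog on a log2 scale, for the 2129 genes called at 6 hr, one point each. Orange points are the 314 genes whose difference changed between the times by the test, grey points the other 1815, and the dashed line marks equal differences; Slc13a3, Siglece, Plekha7 and Serinc3 are far from zero on both axes, whereas Cxcl3, Tnfrsf11b, Cxcl9 and Il10 lie near the vertical line.

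The genotype differences of named genes were followed through the other times. Cxcl3 differed by 0.09 in untreated cells, 0.81 at 3 hr, 1.80 at 6 hr and 1.51 at 9 hr. Serpinb2 went from 0.02 through 0.62 and 1.07 to 0.78, and Tnfrsf11b from 0.18 through 2.00 and 2.13 to 1.23. Each of these changes from untreated cells to 6 hr was called (adjusted p = 0.00012, 0.0017 and 0.017). Ddit4 was at −0.13 before LPS and at 0.82 at 6 hr (adjusted p of the change 0.00047).

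Among lower genes Tnfsf10 was at −0.20 before LPS, −0.84 at 6 hr and 0.01 at 9 hr, and both changes were called (adjusted p = 0.032 and 0.0052). Tlr3, at −0.05, −0.51 and −0.09 at the same times, changed from untreated cells (adjusted p = 0.023). Map2k4 moved from −0.03 to −0.53 and then to −0.22 at 9 hr, with both changes called (adjusted p = 0.00047 and 0.039). Ccnd1 turned from −0.38 at 6 hr to 0.30 at 9 hr (adjusted p = 7.7e-05). Cxcl9 was at −0.03 before LPS and at −1.19 and −1.13 at 6 and 9 hr.

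**Figure D5:**
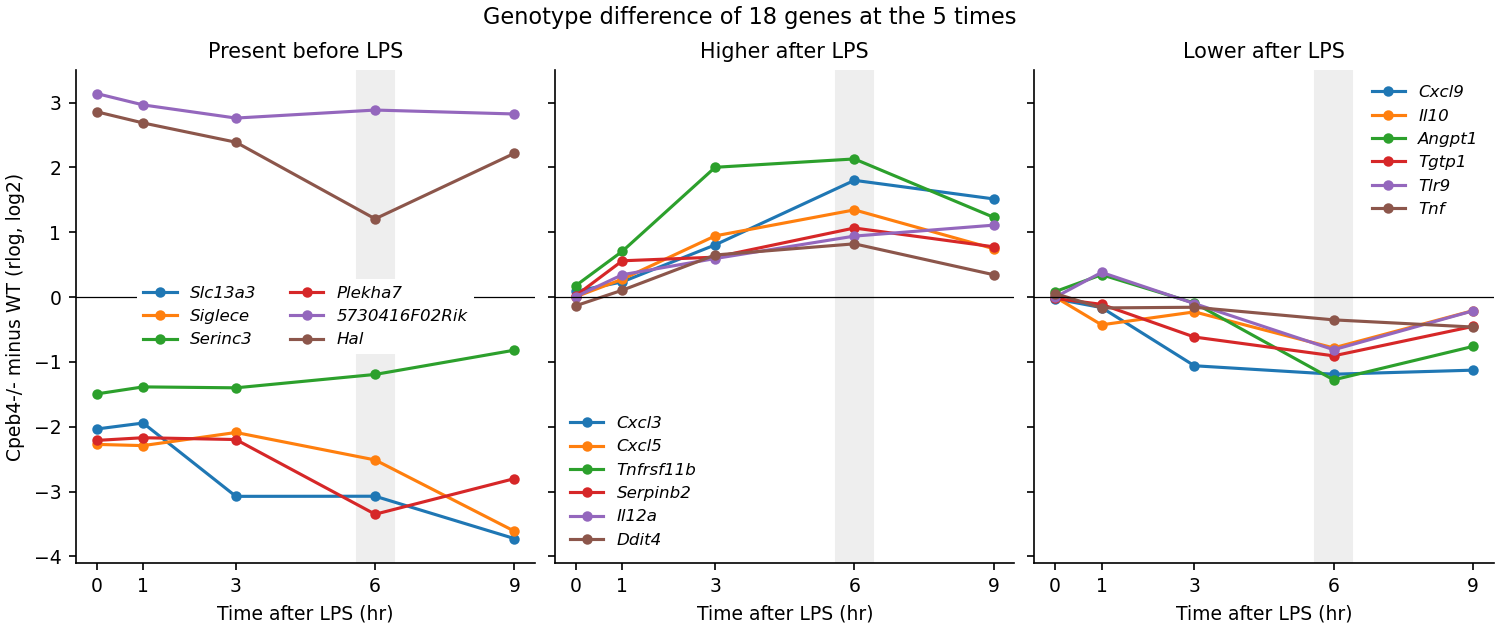
Difference between Cpeb4-/- and WT means (vertical axis, rlog on a log2 scale, 4 libraries per genotype and time) of 18 genes at 0, 1, 3, 6 and 9 hr of LPS (horizontal axis), with 6 hr shaded and no error bars drawn. The genes on the left, such as Slc13a3 and Siglece, are far from zero at 0 hr, while those in the middle, such as Cxcl3, and on the right, such as Cxcl9 and Il10, start near zero and are farthest from it at 6 hr or 9 hr.

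Neighbouring genes were examined because the mice were of mixed background. Cpeb4 lies on chromosome 11 from 31870104 to 31935635 on GRCm38.p6, and of 55 tested genes within 10 Mb of it 9 were called (16.4%), 2 higher and 7 lower, close to the 16.3% over all genes. Among 170 windows of 10 Mb with at least 30 tested genes, the median share called was 16.1%. The highest was on chromosome 2 between 160 and 170 Mb, with 36 of 77 genes called (46.8%), 30 lower and 6 higher. It holds Slc13a3, Serinc3 and the sulfatase gene Sulf2 (−0.92, adjusted p = 2.7e-05) among the lower genes, and Slpi and Mmp9 (0.44, adjusted p = 0.012) among the higher ones.

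The window on chromosome 6 between 120 and 130 Mb was not next in rank, and it is described because it holds 5 called genes that differed by 0.8 or more, a choice made after the values were seen. The second highest share was on chromosome 10 between 10 and 20 Mb (13 of 32 genes, 40.6%), and the third on chromosome 6 between 130 and 140 Mb (12 of 32, 37.5%), with 8 higher and 4 lower. Between 120 and 130 Mb, which includes a cluster of lectin-like receptors, 33 of 109 genes were called (30.3%), 26 lower and 7 higher. BC064078 was at 6.38, 6.41, 6.30 and 6.44 in WT and at 3.76, 4.10, 3.88 and 3.68 in KO (−2.53, adjusted p = 2.3e-07), Klra17 fell by 1.24 (adjusted p = 0.0022), and Clec1b rose by 1.22 (adjusted p = 0.00098). In untreated cells their differences were −1.34, −2.30 and 1.00. Of 3 genes that are known to differ between C57BL/6J and 129, Casp4 rose by 0.84 (adjusted p = 4.7e-05) and Nnt by 0.25 (adjusted p = 0.01), after 0.81 and 0.31 in untreated cells. Whether the strain of origin of these segments differs between the genotypes was not tested.

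Marker lists described the cells. Of 15 macrophage markers 14 were tested, and their summed level on the log2 scale lay between 19.73 and 19.78 in WT and between 19.54 and 19.66 in KO. With the deposited values 6 were lower and 1 higher, and after quantile normalization 3 were lower and 5 higher, so the direction of this list depended on scaling. Lyz2 (−0.38, adjusted p = 0.019, or 0.15 after quantile normalization), Fcgr1 (−0.28, adjusted p = 0.0037) and Cd68 (−0.26, adjusted p = 0.0017) were lower, the last pair by 0.16 (adjusted p = 0.02) and 0.14 (adjusted p = 0.015) after quantile normalization, and Cebpa, a myeloid transcription factor, was higher by 0.60 (adjusted p = 0.0014).

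Markers of other cells were summed in the same way. Of 12 neutrophil markers 5 were tested and none was called, with summed levels of 13.2 to 13.46 in WT and 13.1 to 13.3 in KO. Of 12 B and T cell markers 3 were tested, and Lck (−0.39, adjusted p = 0.034) and Cd4 (−0.38, adjusted p = 0.019) were lower. Lck was not called with the mouse as a block (adjusted p = 0.089). The summed level of this list was 8.43 to 8.79 in WT and 8.20 to 8.34 in KO, without overlap. Of 10 stromal markers 2 were tested, and Pdgfrb was higher, at 8.68, 8.49, 8.70 and 8.60 in WT and 9.43, 9.19, 9.15 and 9.36 in KO (0.67, SE 0.07, adjusted p = 0.00022). The summed level of the stromal list was 8.603 to 8.776 in WT and 9.226 to 9.499 in KO, again without overlap. Pdgfrb made up most of this sum, so the sum repeats the Pdgfrb difference and does not describe the other stromal markers. Of 8 dendritic cell markers 5 were tested and 1 was lower, of 10 erythroid and megakaryocyte markers 3 were tested and none was called, and no mast cell marker reached the floor. The part of these markers in the differences above was not tested.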

How the data were processed

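Poly(A) RNA-seq was made from BMDMs of 4 WT and 4 Cpeb4-/- mice at 5 times. The authors aligned reads to mm10 with STAR 2.3.0e, counted them per gene with featureCounts, and deposited log2 values from the rlog function of DESeq2. The table holds no read counts, so depth per library and counting intervals cannot be given, and a model on log2 values replaced a count test.

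Groups were taken as labelled. A floor of log2 of 5 (2.32) was set on the mean over the 8 libraries, and the remaining genes went through limma 3.58.1, whose eBayes step used a mean-variance trend, under R 4.3.3, with Benjamini-Hochberg adjustment over all 13039 genes. Changes between times used all 40 libraries. Cpeb4 was also tested by a two-sided exact permutation test. On simulated data with 13039 genes, planted changes of 0.25, 0.5 and 1 were recovered for 25 of 100, 36 of 50 and 46 of 50 genes, with 5 false calls. The noise was drawn separately for each gene, with no effect of mouse or cage, so the false calls do not cover such effects. Far fewer genes were changed than were called in the data, so recovery there may differ. Promoter windows and sequences were from RefSeq (GRCm38.p6), for 10065 tested genes.

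Named genes were the 12 largest separated rises and falls, up to 4 called genes per direction in each list or chromosome window, and preset key genes. Cpeb1, Cpeb3, Ifit3, Irgm2 and Igtp were added after their values were seen, and some results are not reported here. Members and lists were chosen with earlier results of these data known. Libraries of one mouse pair across times. Of 32 pairs of a 6 hr library with another time of the same mouse, 29 deviated together with r over 0.1 (median 0.289). Alternatives were other floors, variance models, scalings, batch, cage, mouse as a block and leaving out each library.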

Additional observations from a re-analysis of the deposited data

Results flagged for a closer look

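Groups of 4 libraries were checked for each genotype in 158 genes examined by name, some of which are not reported here. In 19 of 316 groups, 1 library stood apart from the rest by Dixon's gap ratio. This is the gap to the nearest library over the range of the group. Each is given below with the range of the others. Chance gives such a library in about 1 in 20 groups. 5730416F02Rik had KO mouse 55 at 3.75 against 7.37 to 7.44 (ratio 0.981), and Gm6334 had WT mouse 87 at 1.69 against 1.73 to 1.74 (ratio 0.928). F3 had KO mouse 3 at 9.43 against 8.92 to 8.96 (ratio 0.933), and Hmcn2 had KO mouse 55 at 6.08 against 7.41 to 7.61 (ratio 0.871). Rps15a-ps8 had WT mouse 87 at 3.60 against 7.02 to 7.25 (ratio 0.937), and Cxcl9 had KO mouse 55 at 10.95 against 10.30 to 10.41 (ratio 0.842). Ifi44 had WT mouse 87 at 12.08 against 12.24 to 12.25 (ratio 0.915), and Ifi44 had KO mouse 55 at 11.94 against 11.47 to 11.52 (ratio 0.887). Iigp1 had KO mouse 55 at 12.64 against 12.12 to 12.19 (ratio 0.855), and Stat4 had KO mouse 62 at 5.62 against 5.96 to 5.98 (ratio 0.953). Map2k4 had WT mouse 87 at 11.89 against 12.02 to 12.04 (ratio 0.84), and Map3k8 had WT mouse 88 at 12.14 against 11.86 to 11.89 (ratio 0.922). Ndrg1 had KO mouse 3 at 11.33 against 11.48 to 11.50 (ratio 0.911), and Hif1a had KO mouse 55 at 13.63 against 13.43 to 13.46 (ratio 0.833). Tob2 had KO mouse 55 at 11.74 against 11.61 in each of the others (ratio 0.975), and Mcm10 had KO mouse 62 at 9.29 against 9.69 to 9.73 (ratio 0.899). Cd68 had WT mouse 25 at 14.51 against 14.58 to 14.59 (ratio 0.848), and Mmp9 had KO mouse 55 at 9.16 against 9.40 to 9.42 (ratio 0.903). Bcl2a1a had WT mouse 88 at 8.28 against 4.03 to 4.27 (ratio 0.943).

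Of the 158 genes examined by name, 46 had a 6 hr genotype difference that departed from that in untreated cells. The adjusted p was at most 0.05 (limma, all 40 libraries). The difference at 6 hr was above that in untreated cells by 1.95 for Tnfrsf11b, 1.71 for Cxcl3, 0.74 for Slpi, 0.83 for F3, 1.34 for Cxcl5, 1.62 for Rnase6, 1.06 for Klra17 and 0.21 for Ifngr1. Further positive changes from untreated cells were 0.57 for Osm, 0.34 for Dusp16, 0.31 for Mapk8, 0.95 for Ddit4, 0.71 for Bnip3, 0.53 for Slc16a3, 0.45 for Pfkl and 0.49 for Gclm. The remaining positive changes were 0.43 for Srxn1, 1.04 for Serpinb2, 0.43 for Ptges, 0.78 for Socs2 and 0.49 for Cdkn1b. The change from untreated cells was negative for the other genes, with −1.16 for Gm6334, −1.04 for Slc13a3, −1.18 for BC064078, −1.16 for Cxcl9, −0.47 for Cmpk2, −0.42 for Tyk2, −0.31 for Irf5 and −0.64 for Tnfsf10. It was also −0.41 for Tnf, −0.78 for Il10, −0.42 for Tnip3, −0.48 for Dusp2, −0.33 for Zfp36, −0.46 for Tlr3, −0.50 for Map2k4 and −0.31 for Map3k8. Negative changes followed with −0.50 for Ndrg1, −0.44 for Hk3, −0.31 for Gla, −0.51 for Icam1, −0.49 for Tnfrsf11a, −0.71 for P2ry1, −0.42 for Hpgds, −0.35 for Ccnd1 and −0.37 for Il4ra. The sign of a change does not tell whether the difference grew. Klra17 went from −2.30 in untreated cells to −1.24 at 6 hr and Gm6334 from 2.64 to 1.48, so both differences became smaller.

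Against 9 hr, 12 genes departed. The difference at 6 hr minus that at 9 hr was 1.10 for Siglece and 0.29 for Wdr75, and it was −1.90 for Sectm1a, −0.37 for Serinc3, −0.57 for Cmpk2, −0.85 for Tnfsf10, −0.45 for Il15, −0.42 for Tlr3, −0.32 for Map2k4, −0.70 for P2ry1, −0.67 for Ccnd1 and −0.32 for Irgm2.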

How the results depend on the processing

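With no floor on the level, 535 genes were higher and 753 lower instead of 835 and 1294, and without a trend in the variance model 609 and 854. Fitting cage as a random effect called 1233 and 1882, although few mice shared a cage and cagemates lay in different batches. All 40 libraries in one fit with the mouse as a replicate block gave 844 higher and 1300 lower. This fit ended the call of 7 of 157 genes examined by name, some of which are not reported here. Leaving out 1 library gave 553 to 797 higher and 796 to 1536 lower genes, lowest without KO mouse 2 in both. The count of departures from untreated cells was 382, and it was 924 with the mouse as a replicate block, 228 after quantile normalization and 177 to 591 without 1 library. For 9 hr it was 253, then 702 with the block and 113 to 371 without 1 library, these last alternatives being chosen after seeing the data. The Cpeb4 difference stayed between −1.43 and −1.12. Over these 157 genes, 2632 results under an alternative kept direction and side of the threshold, and 168 lost the call. A further 9 gained it and 4 turned in sign. The sign turned only in genes not called, Ifnb1 and Cpeb1. Ifnb1 was at −0.009 without WT mouse 69 (range to 0.2391). Cpeb1 was at −0.006 without KO mouse 3, −0.0388 without WT mouse 88 and −0.0526 without KO mouse 2 (range to 0.1871). Calls were lost most often with no floor, for 49 of these genes, and quantile normalization ended 7. The causes of these changes were not tested.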

Other observations

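Further gene groups were called in smaller numbers at 6 hr. Of 17 TNF receptors and ligands 2 were higher and 5 lower, with a median difference of −0.13. Of 13 chemoattractant receptors none was higher and 3 were lower, and of 15 Siglecs and related inhibitory receptors 1 was higher and 5 were lower, Siglece among them and Cd37, a tetraspanin, by 0.44 (adjusted p = 0.00061, limma). Cd37 had the same difference of −0.44 in untreated cells. Of 30 apoptosis regulators 2 were higher and 6 lower (2 and 3 after quantile normalization), of 16 inflammasome genes 2 and 1 (4 and 1), of 8 NADPH oxidase genes 1 and 2 (1 and 0), and of 26 genes of the ATF4 stress response 4 and 1 (6 and 0). The ATF4 counts were 1 higher and none lower without WT mouse 88, and 2 higher and none lower without KO mouse 3, WT mouse 25, KO mouse 2, KO mouse 55 or WT mouse 69. Txnip, which inhibits thioredoxin, was higher by 0.18 (adjusted p = 0.0066).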
